A study of Arabidopsis thaliana with 12 samples.

Results

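The comparison set leaves of Arabidopsis thaliana taken on day 1 of a moderate drought against leaves of well-watered plants sampled for that same day. It was chosen by the labels: the 2 arrays of moderate drought on day 1 and the 2 arrays of their own control, 4 of the 12 arrays of the series, each with 21461 probe sets after control probe sets were left out. All plants were of the Columbia accession and were kept in peat pellets at 22 °C, lit for 10 h each day. For the drought group watering stopped 30 days after sowing, and the treatment was then to hold the soil at 30% of field capacity; the labels do not give the soil water on the sampling day. Control plants were watered throughout. Young leaves of 5 plants were pooled for each array, so the replicates (n = 2 per group) are pools. Every p-value rests on the spread between pools over the arrays in its fit, moderated across all probe sets. The other 8 arrays hold the same moderate drought sampled on day 10, and a progressive drought sampled on the first day of wilting, each with its own well-watered control. The progressive drought started 35 days after sowing, against 30 for the moderate drought.

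Drying soil raises abscisic acid (ABA) in leaves. ABA binds PYR/PYL receptors, which then block clade A protein phosphatases 2C (PP2C); this frees SnRK2 kinases, which activate transcription factors of ABA-responsive genes, among them dehydrins and other late embryogenesis abundant (LEA) proteins that protect drying cells. The same phosphatases are induced by ABA and hold its signal in check. Copper and iron are cofactors of superoxide dismutases, which remove superoxide, and the microRNA miR398 is known to cleave the transcripts of the copper/zinc superoxide dismutases CSD1 and CSD2 and of their copper chaperone CCS. Ferritins store iron in plastids.

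The measurements are log2 expression values from Affymetrix ATH1 arrays, and a difference is drought minus control, in log2 units with its standard error. A probe set was called when its adjusted p in limma, Benjamini-Hochberg over all probe sets, was under 0.05. On that rule 108 probe sets rose and 79 fell, together 0.871% of those tested (0.503% higher and 0.368% lower), and 115 of the 187 carried a symbol. The median of the called differences was 0.95 for rises and −0.92 for falls, and the smallest in size was 0.59. In 78 cases the difference was at least 1 in size, with 47 rises and 31 falls. An unadjusted p under 0.05 was found for 3855 probe sets, or 17.96% of all. That share is the background for the counts of unadjusted p-values given for gene lists below. Over all probe sets the median difference was 0.01, and 11379 lay above 0.

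The calls depended on which arrays gave the spread. With the spread estimated over all 12 arrays, 4 probe sets were called (0.0186%), all of them among the 187: LTP4, CPUORF47 and YSL2 higher and CSD2 lower, with 1865 at an unadjusted p under 0.05. Without control array 1 or control array 2 the number of calls fell to 23 in both cases, and without drought array 1 or drought array 2 it was 135 and 166. Of the 187, 15 stayed called whichever single array was left out, and 12 of these have a symbol: LTP3, LTP4, LTI30, PELPK1, FER1, ST2A, CPUORF47, CSD2, CCS, CSD1, PYL4 and HIR2. Every other gene described here as having risen or fallen lost its call without at least 1 of the 4 arrays. Medians of gene lists moved as well: of the 49 lists examined, 16 medians turned sign without 1 of the arrays, 26 kept their sign but moved by over 1.5 times, and 7 moved less. The drought and control arrays did not overlap for 10609 probe sets, 49.4% of all, and for all 187 called ones.

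**Figure D1:**
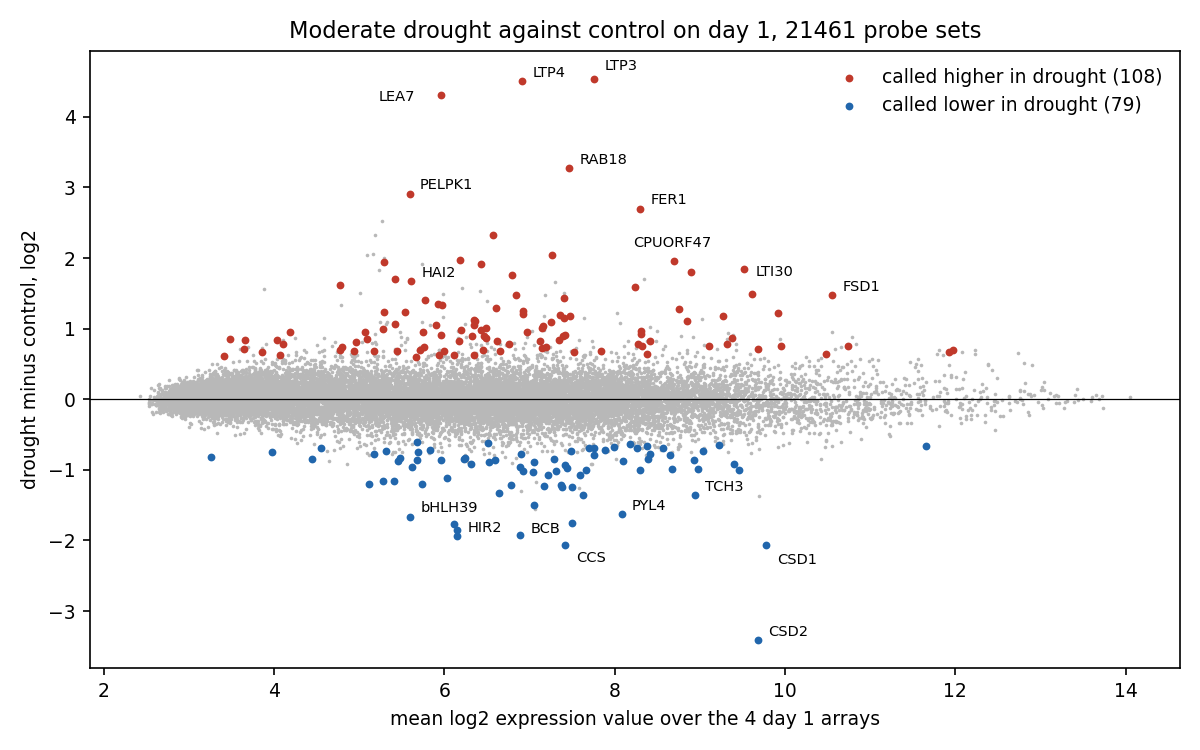
Mean log2 expression value over the 4 day 1 arrays (horizontal) and drought minus control in log2 units (vertical) for each of the 21461 probe sets. Red points are the 108 called higher, blue points the 79 called lower and grey points all others; the lipid transfer genes LTP3 and LTP4 lie highest and the superoxide dismutase CSD2 lowest.

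Across probe sets the 2 control arrays correlated at 0.997 and the 2 drought arrays at 0.995, with root mean square SDs of 0.12 and 0.15 log2 units. Such correlations of levels cannot show that the pools were alike. A gap of at least 1 log2 unit was found for 59 probe sets between the drought pools and for 5 between the control pools. The 3 measured mesophyll markers of 7 listed were at 12.65 to 13.65 log2 units on every array, and 12 markers of shoot apex and flower at 2.89 to 6.07. Brightness cannot be compared between probe sets, so these levels show neither which markers were absent nor the makeup of the tissue. In pooled tissue, fewer cells of a type and less RNA per cell cannot be told apart.

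Transcripts of lipid transfer proteins, small secreted proteins that carry lipids through the cell wall and are tied to cuticle formation, showed the largest rises of the comparison. LTP3 (AT5G59320) was at 5.15 and 5.83 in the control arrays and at 9.92 and 10.14 in the drought arrays. LTP4 (AT5G59310) was at 4.47 and 4.84 against 9.28 and 9.04. Both drought pools lay far above both control pools for each gene, and the control pools of LTP3 were the more widely spread. LTP3 rose by 4.54 ± 0.22, or 23.2-fold (adjusted p = 0.00183), and LTP4 by 4.51 ± 0.15, or 22.7-fold (adjusted p = 7.33e-04). The genes are close relatives that lie next to each other in the genome, so how far each probe set also reads the other transcript is uncertain. LTP2 (AT2G38530), at 7.86 and 8.12 against 9.52 and 10.07, rose by 1.80 ± 0.19 (3.49-fold, adjusted p = 0.0244). In all, 3 of the 7 measured lipid transfer genes rose (42.9%, against 0.871% of all probe sets) and 0 fell, with a median of 0.50. The 4 that were not called also lay above 0: LP1 at 0.50, LTP6 at 0.41, LTP5 at 0.22 and LTP12 at 0.09.

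Genes of the LEA family rose in 3 of 19 cases (15.8%, against 0.871% of all probe sets). All 19 measured members lay above 0, the lowest at 0.00 after rounding, with a median of 0.46. LEA7 (AT1G52690) was at 3.72 and 3.91 in the control arrays and at 9.09 and 7.16 in the drought arrays. The drought pools differ here by 1.93 log2 units, the widest gap between them of any called gene, yet the lower one is far above both controls. LEA7 rose by 4.31 ± 0.55, or 19.8-fold (adjusted p = 0.0365). The dehydrin RAB18 (AT5G66400) went from 5.73 and 5.92 to 9.62 and 8.57, a rise of 3.27 ± 0.31 or 9.63-fold (adjusted p = 0.0219). The cold-induced dehydrin LTI30 (AT3G50970), at 8.53 and 8.66 against 10.45 and 10.41, rose by 1.84 ± 0.10, or 3.58-fold (adjusted p = 0.00236). Its drought arrays lay close together, unlike those of LEA7 and RAB18. Among members that were not called, LEA4-5 was at 0.86, SAG21 at 0.85, LEA14 at 0.70 and the dehydrin ERD10 at 0.64.

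A list of 15 sentinel genes, which are commonly used to mark ABA and water deficit, had 14 members above 0 and a median of 0.79. Of the 15, 3 rose (20%, against 0.871% of all probe sets): RAB18, HB-7 and TSPO. The median was 0.52 without control array 1 and 1.09 without control array 2. HB-7 (AT2G46680), a homeodomain-leucine zipper factor induced by ABA, was at 5.94 and 5.90 against 7.97 and 7.39 and rose by 1.77 ± 0.18, or 3.40-fold (adjusted p = 0.0244). TSPO (AT2G47770), a membrane protein that binds heme, was at 4.53 and 4.81 against 6.04 and 5.77 and rose by 1.23 ± 0.14 (2.35-fold, adjusted p = 0.0271). The remaining sentinels missed the call. LTI65, also known as RD29B, was at 4.68 and 4.87 against 7.41 and 5.98, a difference of 1.92 ± 0.41 with drought arrays far apart (adjusted p = 0.0952). The NAC factor RD26 was at 1.15 (adjusted p = 0.0831), the calcium-binding RD20 at 1.14 (0.143), HB-12 at 0.88 (0.108), the ABA-response factor ABF3 at 0.79 (0.157), LTI78 at 0.69 (0.213) and RD22 at 0.56 (0.0631). NCED3, which cleaves carotenoids in the committed step of ABA synthesis, was at 0.59 (adjusted p = 0.158). ERD5, a proline dehydrogenase, was the one sentinel below 0, at −1.55 (adjusted p = 0.0806).

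Upstream of these genes, the phosphatases and the receptors of the ABA pathway were called in opposite directions. All 9 measured clade A PP2C genes lay above 0, though the lowest only at 0.00 after rounding. The median was 0.71, and 2 rose (22.2%, against 0.871% of all probe sets). HAI2 (AT1G07430) was at 4.58 and 4.96 in control and 6.65 and 6.25 in drought, a rise of 1.68 ± 0.18 or 3.20-fold (adjusted p = 0.0244). PP2CA (AT3G11410), at 7.70 and 7.95 against 8.77 and 8.81, rose by 0.96 ± 0.11, or 1.95-fold (adjusted p = 0.0312). HAI1 was at 1.1, ABI2 at 0.81 and ABI1 at 0.39, none of them called. Among 10 ABA receptors 2 fell (20%) and 0 rose, with a median of −0.30 (−0.20 without control array 1, −0.41 without control array 2) and 6 members below 0. PYL4 (AT2G38310) was at 9.02 and 8.77 in control and at 7.27 in both drought arrays, a fall of 3.08-fold (−1.62 ± 0.11, adjusted p = 0.00661). PYL5 (AT5G05440), at 7.51 and 7.11 against 5.99 and 5.97, fell by 1.33 ± 0.14 (2.52-fold, adjusted p = 0.0244). For both receptors the drought pools were nearly identical and the spread lay between the controls. The 8 other receptors ran from −0.41 for PYL1 and −0.40 for PYR1 to 0.26 for PYL7 and 0.30 for RCAR1.

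The kinases, transcription factors and enzymes around that core had no calls by limma, nor with all 12 arrays. At the 0.871% called among all probe sets, lists of 5 to 10 genes would also hold less than 1 call. Among the 10 SnRK2 kinases, 3 had an unadjusted p under 0.05, against 17.96% of all probe sets, and the median was 0.15. The kinases ran from SNRK2-8 at −0.59 to SNRK2.9 at 0.48. The 9 genes of ABA synthesis had a median of 0.02 with 1 at an unadjusted p under 0.05, and the 6 of ABA breakdown and conjugation a median of 0.09, again with 1. The 5 ABF factors had a median of 0.32, with 3 at an unadjusted p under 0.05.

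Genes of copper metabolism moved in both directions, with 3 of 30 higher and 3 lower, together 20% of the list against 0.871% of all probe sets. The median was 0.08. The falls were those of CSD2, CCS and CSD1. CSD2 (AT2G28190), the copper/zinc superoxide dismutase of the chloroplast, was at 11.22 and 11.54 in control and 7.96 and 7.99 in drought. This was the largest fall in the whole comparison, −3.41 ± 0.13 or 10.6-fold (adjusted p = 7.33e-04). CCS (AT1G12520), the chaperone that hands copper to these enzymes, was at 8.38 and 8.53 against 6.44 and 6.33 and fell by 2.07 ± 0.10, or 4.2-fold (adjusted p = 0.00183). CSD1 (AT1G08830), the cytosolic copper/zinc enzyme, was at 10.59 and 11.04 against 8.81 and 8.69 and fell by 2.06 ± 0.16, or 4.18-fold (adjusted p = 0.0116). All 3 are known miR398 targets; the microRNA itself was not analysed here.

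No other superoxide dismutase was called lower. CSD3, the peroxisomal copper/zinc enzyme, was at 7.88 and 7.77 in control and 7.82 and 7.78 in drought, with overlapping arrays and a difference of −0.03 (adjusted p = 0.929). FSD1 (AT4G25100), an iron superoxide dismutase, went the other way, from 10.08 and 9.56 to 11.22 and 11.37, and rose by 1.48 ± 0.18 (adjusted p = 0.0316). The iron enzymes FSD2 and FSD3 were at −0.09 and −0.47 and the mitochondrial manganese enzyme MSD1 at 0.24, none of them called. CCH (AT3G56240), a copper chaperone known from senescing leaves, was at 9.43 and 9.18 against 10.55 and 10.49 and rose by 1.22 ± 0.11, or 2.33-fold (adjusted p = 0.0218). LAC17 (AT5G60020), a laccase that polymerises lignin and carries copper, was at 4.67 in both control arrays and at 5.39 and 5.64 in drought, a rise of 0.85 ± 0.11 (adjusted p = 0.0377). The copper transporter COPT2 was at 0.88 (adjusted p = 0.132), the laccase IRX12 at 0.60 (0.0557) and the copper-responsive factor SPL7 at 0.29 (0.279).

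Among iron genes 2 ferritins and a metal transporter rose, and 2 regulators of the iron deficiency response fell. These were the 5 calls among 23 measured members (21.7%, against 0.871% of all probe sets), whose median was 0.00. FER1 (AT5G01600), the ferritin known to be induced by excess iron, was at 6.99 and 6.91 in control and 9.86 and 9.44 in drought, a rise of 2.7 ± 0.15 or 6.50-fold (adjusted p = 0.00258). FER4 (AT2G40300), at 6.05 and 6.06 against 6.77 and 7.07, rose by 0.87 ± 0.12, or 1.83-fold (adjusted p = 0.0431). The ferritin FER3 was at 0.10 (adjusted p = 0.669). YSL2 (AT5G24380), a transporter of metals bound to nicotianamine, was at 6.38 and 6.27 against 7.70 and 7.36 and rose by 1.20 ± 0.13 (adjusted p = 0.0255). The groups stood apart for each called ferritin and for YSL2, as they did for all 187 called probe sets and for 49.4% of all. The control pools of these genes lay close together, which makes a call easier to reach.

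Of the regulators, bHLH39 (AT3G56980), a transcription factor of the iron deficiency response, was at 6.12 and 6.74 against 4.93 and 4.60 and fell by 1.66 ± 0.22, or 3.16-fold (adjusted p = 0.0365). BTS (AT3G18290), a ubiquitin ligase that senses iron, was at 9.41 and 9.53 against 8.63 and 8.34 and fell by 0.99 ± 0.12, or 1.98-fold (adjusted p = 0.0347). Members of the list that were not called included the mitochondrial ferric reductase FRO3 at −1.26 (adjusted p = 0.0761), the nicotianamine synthases NAS4 at −0.89 (0.116) and NAS3 at 0.62 (0.0806), the phloem iron transporter OPT3 at −0.67 (0.0538), and the factors PYE at −0.36 (0.19) and BHLH101 at −0.32 (0.163). Of 20 enzymes that remove hydrogen peroxide, 1 rose (5%, against 0.871% of all probe sets) and 0 fell, with a median of 0.08. That member was the cytosolic ascorbate peroxidase APX1, at 10.19 and 10.13 against 10.80 and 10.81, a rise of 0.65 ± 0.09 (adjusted p = 0.0428). The catalase CAT3 was at 0.66 (adjusted p = 0.0538).

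**Figure D2:**
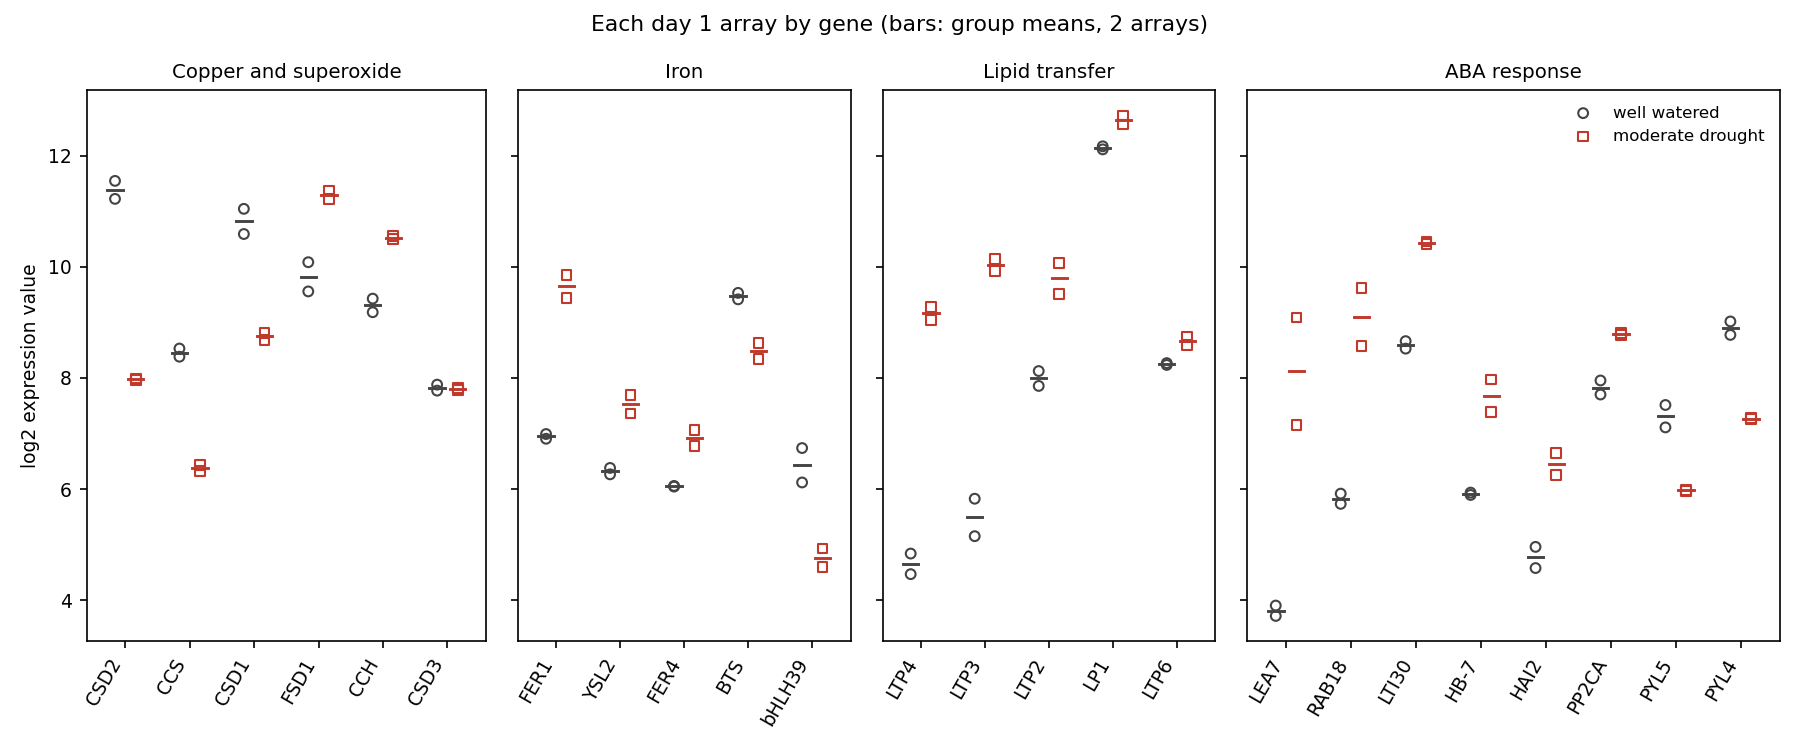
Log2 expression value of each day 1 array for genes of copper and superoxide, iron, lipid transfer and the ABA response. Circles are the 2 well-watered arrays, squares the 2 drought arrays and bars the group means; CSD2, CCS and CSD1 fall while FSD1 and CCH rise, and LEA7 and RAB18 have the widest gaps between drought arrays.

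Several rises fell outside these pathways. PELPK1 (AT5G09530), a repetitive cell wall protein, was at 4.12 and 4.16 against 7.17 and 6.93 and rose by 2.91 ± 0.11, or 7.53-fold (adjusted p = 7.33e-04). CPUORF47 (AT5G03190), whose name refers to a conserved peptide encoded upstream of a main reading frame, was at 7.68 and 7.77 against 9.71 and 9.65 and rose by 1.95 ± 0.09 (adjusted p = 0.00183). ST2A (AT5G07010), a sulfotransferase that acts on hydroxyjasmonate, was at 5.47 and 4.92 against 7.24 and 7.09 and rose by 1.97 ± 0.18 (adjusted p = 0.0218). In these 3 genes both drought arrays lay close together and far above the controls. NATA1 (AT2G39030), which acetylates ornithine, was at 5.53 and 5.29 against 8.24 and 7.22 and rose by 2.32 ± 0.31 (adjusted p = 0.037); its drought pools differ by more than 1 log2 unit. The ribonuclease RNS1, at 3.80 and 4.13 against 5.71 and 5.45, rose by 1.62 (adjusted p = 0.0218), and the linker histone HIS1-3, at 7.33 and 7.55 against 9.32 and 8.74, by 1.59 (adjusted p = 0.0325).

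Single members of the NAC, HD-Zip and starch lists rose. Of 11 NAC factors of stress and senescence, 10 lay above 0 and 1 rose (9.09%, against 0.871% of all probe sets), with a median of 0.46 that was 0.22 without drought array 1 and 0.76 without drought array 2. The riser was NAP (AT1G69490), a NAC factor that promotes leaf senescence, at 5.49 and 5.13 against 6.65 and 6.63, a rise of 1.33 ± 0.13 (2.51-fold, adjusted p = 0.0242). NAC019 was at 1.17 (adjusted p = 0.0541). Of 13 HD-Zip class I factors 1 rose (7.69%), HB-7, given above. Of the 12 CBF, DREB2 and ZAT factors none was called by limma or with 12 arrays, a number that 0.871% would also give. Of these factors 5 had an unadjusted p under 0.05, among them DREB2A at 0.77 (adjusted p = 0.0898). The β-amylase BAM5, at 5.60 and 5.71 against 6.38 and 6.29, was the 1 of 18 starch and sucrose genes that rose (5.56% of the list; 0.68, adjusted p = 0.0443). The galactinol and raffinose genes had 0 calls among 8, as 0.871% would also give, with 3 at an unadjusted p under 0.05. GolS2 was at 1.48 (adjusted p = 0.107), GolS1 at 0.96 (0.26) and the raffinose synthase DIN10 at −1.37 (0.0652).

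Among the falls of genes with a symbol, HIR2 and BCB were next in size after CSD2, CCS and CSD1. HIR2 (AT3G01290), a hypersensitive-induced reaction protein of the plasma membrane, was at 7.18 and 7.07 against 5.06 and 5.31 and fell by 1.94 ± 0.12, or 3.84-fold (adjusted p = 0.00328). BCB (AT5G20230), a blue copper-binding protein of the plasma membrane, was at 7.50 and 8.20 against 5.77 and 6.08 and fell by 1.93 ± 0.23, or 3.80-fold (adjusted p = 0.0323). TCH3 (AT2G41100), a calmodulin-like protein first known from touched plants, was at 9.70 and 9.54 against 8.30 and 8.24 and fell by 1.35 ± 0.10 (2.55-fold, adjusted p = 0.00956). It was the only one of 10 touch and calmodulin-like genes to be called (10%, against 0.871% of all probe sets). TCH2 was at −0.61 (adjusted p = 0.0501). The thaumatin-like defence protein PR5, at 7.88 and 8.08 against 6.68 and 6.86, fell by 1.21 ± 0.12 (adjusted p = 0.0219) and was the 1 call among 9 salicylate and defence genes (11.1%). CIL, a relative of CIA2, was at −1.16, the auxin transporter ABCB21 at −1.15 and the lipase PLA2A at −1.08. Each was called in limma at an adjusted p of 0.0316.

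Of 20 expansins, which loosen cell walls, 1 rose and 1 fell, together 10.0% of the list against 0.871% of all probe sets, with a median of 0.09. The expansin-like gene EXLA1, at 8.62 and 8.0 against 6.97 and 6.94, fell by 1.35 ± 0.20 (2.55-fold, adjusted p = 0.0449), and the β-expansin EXPB3, at 6.41 and 6.32 against 7.02 and 7.27, rose by 0.78 (1.72-fold, adjusted p = 0.0479). The 25 XTH enzymes, which cut and rejoin xyloglucan, had 0 calls by limma or with 12 arrays and 14 at an unadjusted p under 0.05, 4 higher and 10 lower, such as XTH15 at −0.87 and XTH16 at −0.73. In a list of 15 EXORDIUM, germin-like and fasciclin-like genes, which are expressed in growing tissue, 13 lay below 0 and 1 fell (6.67%), with a median of −0.25 that was −0.10 without drought array 1 and −0.35 without drought array 2. That gene was FLA9 (AT1G03870), a fasciclin-like arabinogalactan protein, at 7.86 and 7.70 against 6.40 and 6.71, a fall of 2.33-fold (−1.22 ± 0.13, adjusted p = 0.0244). FLA2 was at −0.60 (adjusted p = 0.0548). Of 25 cell cycle and DNA replication genes 23 lay below 0, with a median of −0.17. None of the 25 was called by limma or with 12 arrays, a number that the 0.871% called among all probe sets would also give, and 6 had an unadjusted p under 0.05; the lowest were the kinesin HIK at −0.57 and the cyclin CYCB1;1 at −0.39.

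Of the genes of light harvesting and chlorophyll synthesis 1 fell. The 13 light harvesting and photosystem genes had a median of 0.01, and 1 fell (7.69%, against 0.871% of all probe sets). This was LHCB4.3, a minor antenna isoform, at 7.78 and 7.63 against 6.80 and 6.92 (−0.85, adjusted p = 0.0325). Of 22 chlorophyll synthesis genes 18 lay below 0, with a median of −0.16, and 0 were called by limma or with 12 arrays, as 0.871% would also give. In this list 5 had an unadjusted p under 0.05, and the magnesium chelatase subunits CHLI1 and CHLI2 were lowest at −0.61 and −0.59. The 8 dawn-phased clock genes had a median of −0.09 and the 6 dusk-phased ones 0.01, with 0 calls and 1 unadjusted p under 0.05 in each list. Lists of that size would hold less than 1 call at 0.871%. Of 24 wax and cutin genes 1 fell (4.17%), KCS1, which elongates very-long-chain fatty acids, at 8.77 and 8.84 against 8.01 and 8.05 (−0.78, adjusted p = 0.0308). Of 20 gibberellin genes 1 fell (5%), the gibberellin-regulated peptide GASA1, at 8.97 and 8.63 against 7.74 and 7.85, with a fold of 2.01 (adjusted p = 0.0377).

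Among cell type markers, 1 of 12 vascular genes (8.33%) and 1 of 13 guard cell genes (7.69%) rose, against 0.871% called among all probe sets. Vascular markers had 10 of 12 members above 0 and a median of 0.34, and their mean level was 5.60 and 5.54 in the control arrays and 5.90 and 5.92 in the drought arrays. The one that rose was the xylem peptidase XCP2, at 6.96 and 6.94 against 7.83 and 7.86 (0.90 ± 0.09, adjusted p = 0.0242), and the xylem cellulose synthase IRX3 was at 0.54 (0.0575). The lignin laccase LAC17, given above among the copper genes, moved with that list, and the part of the vascular list in its rise was not tested. Guard cell markers had 5 of 13 members above 0 and a median of −0.09; the outward potassium channel GORK, at 6.15 and 6.07 against 6.80 and 6.82, rose by 0.70 (adjusted p = 0.037), while MYB60 was at −0.61 (adjusted p = 0.126). Trichome, shoot apex and root markers had medians of −0.06, 0.07 and 0.03 and no calls by limma or with 12 arrays, with 0, 3 and 2 at an unadjusted p under 0.05. At 0.871% lists of that size would also hold less than 1 call.

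No gene was called, in limma or with 12 arrays, in a further set of lists that each hold 7 to 16 measured genes; at 0.871% of all probe sets, lists of that size would hold less than 1 call. The 13 flavonoid and anthocyanin genes had 11 members above 0, a median of 0.32 (0.20 without control array 1, 0.42 without control array 2) and 5 at an unadjusted p under 0.05, led by the glutathione transferase GSTF12 at 0.80 and the glycosyltransferase UF3GT at 0.78. The 8 chlorophyll breakdown genes had a median of 0.24 (0.38 without drought array 2), with 7 above 0 and 4 at an unadjusted p under 0.05; the chlorophyll b reductase NYC1 was at 0.79 (adjusted p = 0.0863). Of 16 glucosinolate genes 12 lay below 0, with a median of −0.17 that was −0.24 without drought array 1 and 0.01 without drought array 2; 12 of them were higher in drought array 1 than in drought array 2, and 4 had an unadjusted p under 0.05. The 9 plasma membrane aquaporins, all of them lower in drought array 1 than in drought array 2, had a median of 0.25 that was 0.34 without the first and 0.0049 without the other, with PIP2;5 at 0.71 (adjusted p = 0.0511), and the 10 vacuolar ones a median of −0.11 (−0.06 without drought array 1 or without control array 2), with DELTA-TIP at −0.60 (0.104); in both families 3 had an unadjusted p under 0.05. The 12 heat shock genes had a median of 0.12 (0.058 without control array 1) and 3 at an unadjusted p under 0.05. Proline (7 genes, −0.11) and brassinosteroid genes (11, −0.14) had medians below 0, as did nitrate assimilation (13, −0.07), and those of ethylene (16, 0.05), Aux/IAA repressors (13, 0.03) and senescence (13, 0.03) were near 0. In these 6 lists, in the order given, 3, 5, 5, 1, 5 and 5 genes had an unadjusted p under 0.05, and the medians for proline, ethylene, Aux/IAA and senescence turned sign without 1 array.

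**Figure D3:**
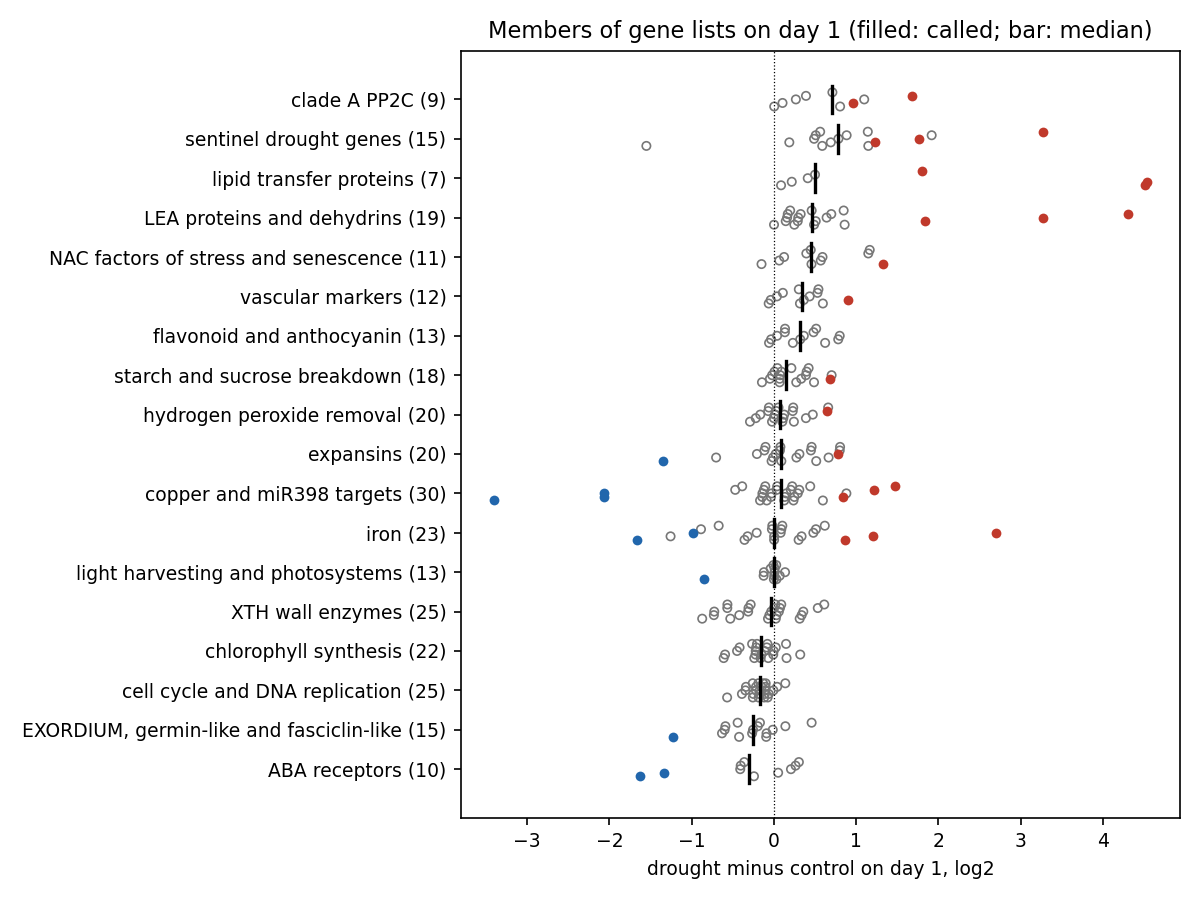
Drought minus control on day 1, in log2 units, for the measured members of 18 gene lists, with the number of measured members in brackets. Each point is a gene, filled red where called higher and filled blue where called lower, and the bar is the median of the list. All 9 PP2C phosphatases lie above 0. In the copper list the superoxide dismutases CSD2 and CSD1 and the chaperone CCS stand far left, and the superoxide dismutase FSD1 lies furthest right.

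The drought pools differed from each other in jasmonate genes. All 24 measured genes of 2 lists, JAZ repressors with other jasmonate response genes and jasmonate synthesis, were higher in drought array 1 than in drought array 2, with a median gap of 1.04 log2 units in both lists. Over all probe sets that gap had a median of −0.02, and 9782 of 21461 were higher in array 1. TAT3, a tyrosine aminotransferase induced by jasmonate, was at 6.35 and 6.08 in the control arrays and at 7.35 and 4.90 in the drought arrays. JAZ10, a jasmonate repressor, was at 7.39 and 7.02 against 8.20 and 6.10, and the lipoxygenase LOX3 at 8.11 and 8.37 against 8.69 and 6.83. In all 3 genes 1 drought array lay above both controls and the other below both. The mean level of the JAZ list was 7.46 and 7.44 in control and 7.93 and 6.84 in drought. None of the 24 was called, a number that the 0.871% called among all probe sets would also give. In the JAZ list 1 and in the synthesis list 2 had an unadjusted p under 0.05, and none was called with 12 arrays. The medians were −0.07 and −0.10, and they turned sign with the array left out: −0.56 and −0.62 without drought array 1, 0.43 and 0.39 without drought array 2.

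Sentinel genes had the same order of drought pools, array 1 above array 2 in 14 of 15, but a smaller median gap of 0.29. In all, 59 probe sets differed by at least 1 log2 unit between the drought pools, 54 of them higher in array 1, and 5 did so between the control pools. Of the 187 called probe sets, 3 had such a gap between drought pools, LEA7, RAB18 and NATA1. That is a larger share than the 59 among all 21461 probe sets. The median gap of the 187 was 0.13 in size. A call is reached more readily where pools lie close together, so this median cannot show that calls are free of the pool difference. The part of the jasmonate difference in the results for these 3 genes was not tested.

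**Figure D4:**
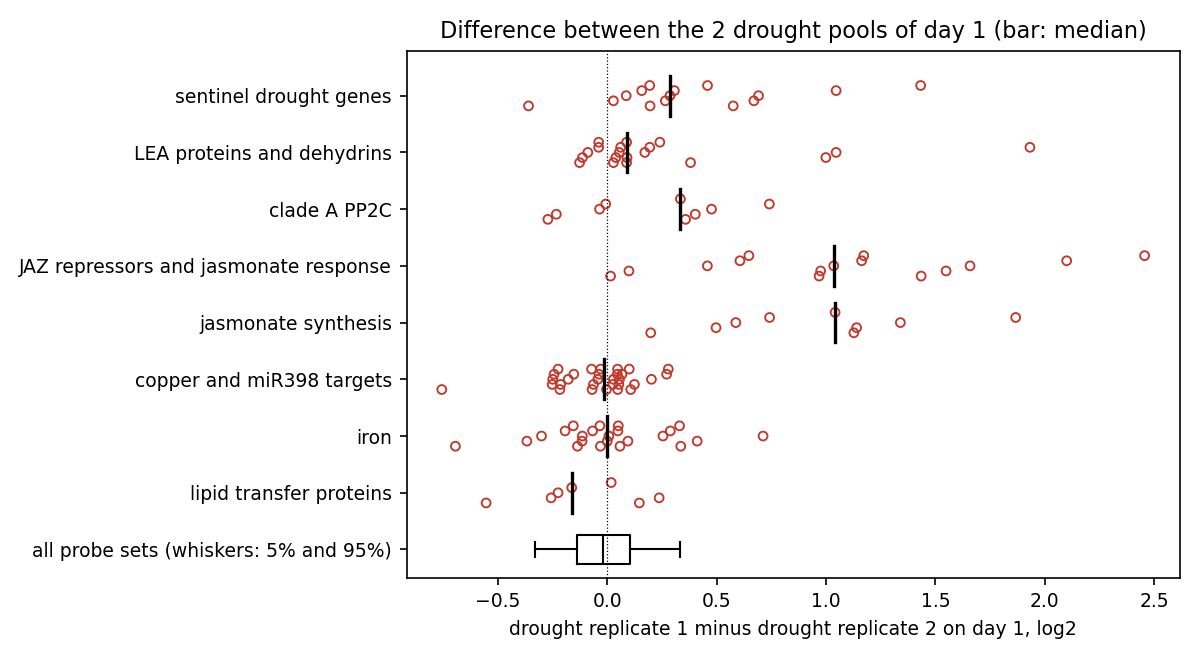
Drought array 1 minus drought array 2 on day 1, in log2 units, for the members of 8 gene lists and, as a box with whiskers at 5% and 95%, for all 21461 probe sets. Points are genes and bars are medians; all members of both jasmonate lists lie right of 0, while the copper and iron lists centre on 0.

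The direction of the day 1 calls was then read in the other 2 samplings, whose arrays did not enter the day 1 fit. On day 10 of the moderate drought, 78 of the 108 genes that rose on day 1 had a difference above 0 (72.2%, against 54.8% of all probe sets) and 60 of the 79 that fell had one below 0 (75.9%, against 45.2%). Their medians on day 10 were 0.21 and −0.36, and no probe set passed limma's adjusted threshold there (0 calls, against 3038 with an unadjusted p under 0.05). At wilting, 100 of the 108 (92.6%, against 50.7%) and 73 of the 79 (92.4%, against 49.3%) kept their sign, with medians of 2.04 and −1.37. There limma called 7.34% of all probe sets. Of the day 1 risers 37 were called higher at wilting (34.3%, against 2.74% of all), and of the day 1 fallers 27 were called lower (34.2%, against 4.59%); 0 were called in the opposite direction.

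The difference between the effects was tested across all 12 arrays. Between day 10 and day 1 the limma test gave 0 calls (1472 unadjusted p-values were under 0.05), while the values of some genes lay far apart. LEA7 was at 4.31 on day 1 and −0.35 on day 10, RAB18 at 3.27 and −0.10, LTP3 at 4.54 and 0.40 and LTP4 at 4.51 and 0.33. HAI2 (1.68 and 1.70), FSD1 (1.48 and 1.29) and NAP (1.33 and 2.39) were near or above their day 1 value on day 10. CSD2 was at −3.41 and −1.22 and FER1 at 2.7 and 1.26. Between wilting and day 1 the effects of 2688 probe sets differed (12.5%), 44 of the 108 risers and 21 of the 79 fallers among them. LEA7 was 5.14 log2 units higher in its wilting effect than on day 1, RAB18 5.10, TSPO 5.51, HAI2 4.88 and HB-7 3.98, and CSD2 was lower by −2.07. Genes whose day 1 rise was not matched at wilting were RNS1 (1.62 and 0.19), EXPB3 (0.78 and −1.55) and BAM5 (0.68 and −0.24), and among the falls bHLH39 (−1.66 and −0.10), CIL (−1.16 and 0.43) and KCS1 (−0.78 and −0.05). For all of these the difference between the effects was itself called.

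**Figure D5:**
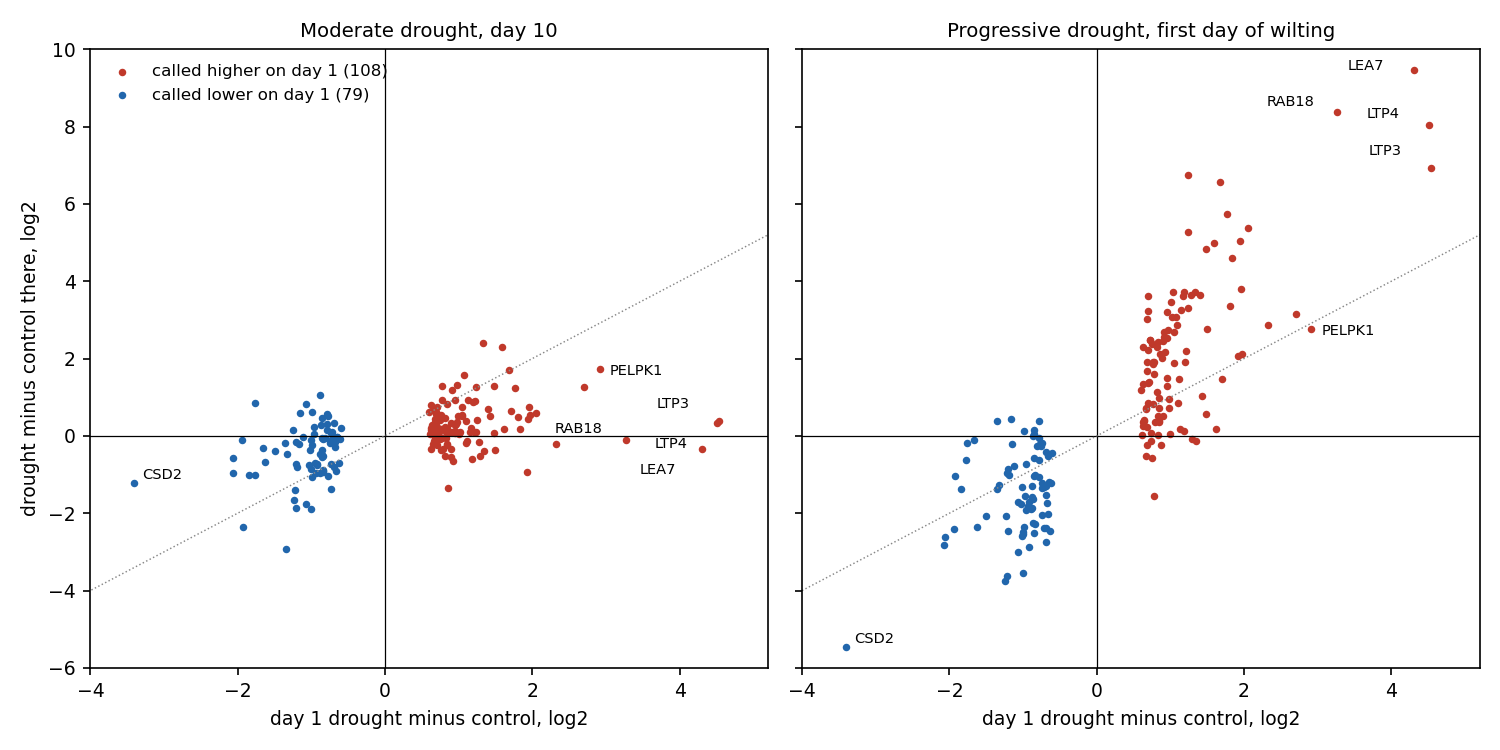
Drought minus control on day 1 (horizontal) against drought minus control on day 10 of the moderate drought (left) and at wilting (right), both in log2 units, for the 187 probe sets called on day 1. Red points were called higher and blue points lower on day 1, and the dotted line marks equal effects; LTP3, LTP4, LEA7 and RAB18 lie near 0 on day 10 and above the line at wilting.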

How the data were processed

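RNA from young leaves was hybridised to Affymetrix ATH1 arrays. The deposited values are log2 expression values that the authors made with RMA, per the submitters' processing notes, which also name the affy package; RMA subtracts background, normalises the arrays to one distribution and summarises the probes of a set. The sources used here give no versions, nor the build by which probes had been regrouped into 1 probe set per locus. Sorted values differed by 0.0502 log2 units on average within the 4 day 1 arrays and by 0.695 over all 12, so the samplings were taken as normalised apart and no level was compared across them. Array medians lay between 5.59 and 5.62; arrays carry no read depth, and their number limits the precision.

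Of 21517 probe sets, 56 controls were left out, which leaves 21461, including 72 antisense ones. A RefSeq table supplied names: it held 21164 of the loci and a symbol for 8982. limma 3.58.1 in R 4.3.3 (lmFit, eBayes, no block) was run on the 4 day 1 arrays, with 2 residual and 4.36 prior degrees of freedom, two-sided, and called at an adjusted p under 0.05. An exact permutation test of 2 arrays against 2 cannot go below p = 0.333. The fit of 12 arrays with 6 group means tested differences between samplings. Both fits were tested on simulated data. Alternatives were array weights, a mean-variance trend, robust moderation, cyclic loess, median centring, leaving out dim probe sets, a replicate block, a size minimum and leaving out each array. Replicate numbers were not taken as pairs in the main fit. The sample titles give only the numbers, and replicate differences of drought and control correlated at 0.03, which cannot settle whether the arms were paired.

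The comparison and its 49 gene lists (699 entries, 638 measured, 5 left out because name and locus did not match) were chosen with earlier results of these data known, so counts and medians of lists are descriptions. Genes named were, among those with a symbol, the 15 probe sets called with the largest difference in each direction, called list members, and up to 4 uncalled members of a list with the largest differences, with the jasmonate genes and CAT3 among examples chosen after their values were seen. Plots were made in Python 3.11.15 with matplotlib 3.10.9.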

Additional observations from a re-analysis of the deposited data

Results flagged for a closer look

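The drought effect at wilting differed from that on day 1 for 2688 probe sets in a direct test of the difference (limma over 12 arrays, adjusted p under 0.05). Among the genes named in the report and called on day 1, 19 were in that number. Given as the wilting effect minus the day 1 effect, the log2 values were 5.51 for TSPO, 5.14 for LEA7, 5.10 for RAB18, 4.88 for HAI2, 3.98 for HB-7, 3.55 for LTP4, 3.41 for HIS1-3, 1.85 for CPUORF47, 1.77 for PP2CA, 0.98 for CCH and 0.71 for YSL2, all genes that rose on day 1. They were −2.07 for CSD2 and −2.40 for FLA9, which fell on day 1. In these 13 genes the wilting effect had the same direction and a larger size. In the other 6 the wilting effect was near 0 or of the opposite sign: −2.33 for EXPB3, −1.43 for RNS1 and −0.92 for BAM5, which rose on day 1, and 1.59 for CIL, 1.57 for bHLH39 and 0.73 for KCS1, which fell. The samplings also differed in plant age, in the kind of drought and in the spread between replicate arrays, and the part of these in the differences was not tested.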

How the results depend on the processing

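The number of calls was the least stable result. The counts of higher and lower probe sets were 108 and 79 as reported, and became 235 and 177 with a mean-variance trend, 171 and 123 after cyclic loess, 188 and 123 with arrays centred on their median, 278 and 267 with dim probe sets left out (10731 tested), 47 and 31 for differences of at least 1, and 3 and 1 with all 12 arrays. Array weights (119 and 89) and robust moderation (129 and 96) gave similar counts. All 187 calls were kept under the trend, loess, centring, weights and robust settings, and 149 of the 149 still tested without dim probe sets. With the replicate number as a block, 0 and 0 were called by limma, with 3503 at an unadjusted p under 0.05. The block leaves 1 residual degree of freedom. Replicate differences correlated at 0.03, which cannot settle whether the arms were paired. Leaving out 1 array in turn gave 10 to 124 higher and 10 to 54 lower calls; a group of 1 array is then assumed to vary like the other group. Every one of the 187 kept its sign in each of these fits that tested it, which is no support for the calls. Their drought and control arrays did not overlap, so leaving out or weighting arrays could not turn a sign. The trend, robust, block and 12-array fits estimate the same differences.

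Calls with the same direction elsewhere were 138 of 187 on day 10 and 173 of 187 at wilting. They were 4 and 4 of the 4 calls with 12 arrays, 227 and 282 of 311 with centred arrays, and 425 and 479 of 545 without dim probe sets. For the named genes, 1165 of 1450 gene and setting pairs kept direction and side of the threshold, 182 lost the call, 97 gained it and 6 reversed. Only the 47 of 123 named genes that were called on day 1 could lose a call. The 182 losses therefore fall among the pairs of those 47, and the 1450 are not their base. The reversed ones were small or jasmonate-related differences when 1 array was left out: CSD3 ranged from −0.080 to 0.028 (reversed without control array 1), TAT3 from −1.32 to 1.14 and JAZ10 from −1.11 to 0.99 (both without control array 1 or drought array 2), and LOX3 from −1.41 to 0.45 (without drought array 2). Beyond what these constructions show, causes were not tested. Of the 187, 46 control means and 40 drought means lay below the array median, so their folds are approximate; how far such levels stand above background was not tested.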

Other observations

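Some gene families outside the lists were looked at after their values were seen, so their counts are descriptions with no test of the family. Type-A response regulators, which dampen cytokinin signalling, had 8 of 10 members below 0 and a median of −0.39 (−0.25 without control array 1). Of the 10, ARR6 (−0.96) and RR16 (−0.72) fell (20%, against 0.871% of all probe sets). At wilting the median was −1.23 and 2 were called lower, where 4.59% of all probe sets were. Of 37 cysteine-rich receptor-like kinases 3 fell (8.11%, against 0.871% of all probe sets), CRK4, CRK41 (−0.81) and CRK5 (−0.69), and 24 lay below 0. Of 55 small auxin up RNAs 3 fell (5.45%), SAUR15 (−0.96) among them. Arabinogalactan proteins AGP7 (−0.94) and AGP15 fell among 29 measured (6.90%).

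Of 5 jacalin-related lectins 2 rose (40%, against 0.871% of all probe sets), JAL22 and JAL33. All 5 lay above 0, with a median of 0.95 that was 0.63 without drought array 1 and 1.28 without drought array 2. In 4 of the 5 drought array 1 was the higher, as in the jasmonate genes, with a median gap of 0.66; its part in the result was not tested. Of 9 MLP-like proteins 1 rose (11.1%), MLP28 (1.1), and all 9 lay above 0, with a median of 0.46. Amino acid permeases had 7 of 8 members above 0, and 1 of the 8 rose (12.5%), AAP1 (0.78). NF-YA factors had 9 of 10 members above 0, a median of 0.26 and NF-YA7 highest at 0.86 (adjusted p = 0.0638). Proteins of the plastid transcriptionally active chromosome had 13 of 16 members below 0 and a median of −0.27 (−0.17 without control array 1). At wilting their median was −0.94 and 6 were called lower, where 4.59% of all probe sets were.

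Of the 187 called genes, 3 pairs were direct neighbours in the order of protein-coding genes: LTP4 with LTP3, PELPK2 with PELPK1, and EXPB3 with an unnamed gene. The 72 antisense, 72 chloroplast and 50 mitochondrial probe sets held 0 calls by limma, and at the 0.871% of all probe sets each class would hold less than 1. An unadjusted p under 0.05 was found for 13, 7 and 1 of them, or 18.1%, 9.72% and 2.00%. Of the 21267 nuclear sense probe sets 3834 had one, or 18.03%.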
